A study of Mus musculus with 6 samples.

Results

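Ribosome assembly and rRNA processing factors are the proteins that cut, modify and fold ribosomal RNA and build it into the 2 ribosomal subunits. The factors read here are a list chosen with earlier results of these data known. All 35 genes of the list were found by symbol in the deposited table of 22740 protein-coding genes. Of these, 19 act on the small (40S) subunit, 14 on the large (60S) subunit and 2 on both. Their transcripts were measured in the pigmented mouse melanoma line B16, grown for 3 days with 1 uM of CX-5461 or with DMSO, its solvent control. The series' design text calls the cells B16-F10. Both groups carry the same genotype label, BRAFV600E-negative, and grew in the same serum-containing medium. CX-5461 is a compound known to inhibit RNA polymerase I, which makes the precursor of the large rRNAs. There were 3 samples in each group. Nothing in the labels says that they came from separate cultures, so every p-value measures the spread between these samples, which may be technical.

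As background, ribosomal RNA is made in the nucleolus as 1 long precursor. The small-subunit processome, which includes the U3 small nucleolar RNA, gathers on the front part of this precursor and cuts out the 18S rRNA, which leaves the nucleus in pre-40S particles. The rear part is processed in pre-60S particles, where the PeBoW complex is needed for the maturation of the 5.8S and 28S rRNAs. Growing cells keep these factors high, and many of their genes are known targets of the transcription factor MYC.

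The 6 libraries held 17573990 to 22908309 counts, and members had between 442 and 3980 counts in a library, so counting error was small for each of them. All 35 members passed the filter on low counts. CX-5461 replicate 2 stood apart from the other CX-5461 libraries, at -15.5 on a second principal component that held 2.83% of the variance, against 8.49 and 6.91. Without it 29 members were lower and 2 higher, the same counts as with it. The melanocyte markers Pmel, Mlana, Tyr, Tyrp1, Dct, Sox10 and Mitf summed to 28253 to 30557 CPM (counts per library scaled to a common total) with CX-5461 and to 22078 to 22929 CPM with DMSO. The 5 fibroblast markers (Col1a1, Col1a2, Dcn, Lum and Pdgfra) summed to 30.9 to 34.4 CPM with CX-5461 and 12.5 to 16.5 CPM with DMSO. The difference came from Col1a2, at 25.1 ± 1.34 CPM with CX-5461 and 2.22 ± 0.552 CPM with DMSO (SD, n = 3 each). Col1a1 was lower, at 2.81 ± 0.364 CPM with CX-5461 and 6.94 ± 1.61 CPM with DMSO. Pdgfra was also lower, at 4.51 ± 0.540 CPM with CX-5461 and 5.80 ± 1.02 CPM with DMSO, though its libraries overlapped. Dcn and Lum were under 1 CPM in all libraries. The 4 leukocyte markers (Ptprc, Csf1r, Cd68 and Cd3e) summed to 11.2 to 13.5 CPM with CX-5461 and 10.6 to 10.8 CPM with DMSO, and Cd3e had no count. The keratinocyte markers Krt5 and Krt14 did not exceed 0.0506 CPM. What part these markers' cells have in the results was not tested.

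The promoters of 4 members are shown because these had the largest changes among the small-subunit factors (Wdr75 and Mphosph10) and the large-subunit factors (Nop16 and Nle1) with a promoter entry. Each is the 250 bases before the RefSeq start of the gene in build GRCm38.p6, 5′ to 3′ on the strand of the gene. Capitals mark matches to either of 2 motifs, CCGGAAG of ETS factors and CGCATGC of NRF1, on either strand; the MYC E-box CACGTG was searched as well.
Wdr75, chr1:45794916-45795165, plus strand: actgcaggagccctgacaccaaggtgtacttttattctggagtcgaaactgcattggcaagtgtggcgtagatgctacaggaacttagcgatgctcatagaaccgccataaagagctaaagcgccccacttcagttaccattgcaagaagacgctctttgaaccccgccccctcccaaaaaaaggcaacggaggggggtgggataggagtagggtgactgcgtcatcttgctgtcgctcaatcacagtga
Mphosph10, chr7:64392237-64392486, minus strand: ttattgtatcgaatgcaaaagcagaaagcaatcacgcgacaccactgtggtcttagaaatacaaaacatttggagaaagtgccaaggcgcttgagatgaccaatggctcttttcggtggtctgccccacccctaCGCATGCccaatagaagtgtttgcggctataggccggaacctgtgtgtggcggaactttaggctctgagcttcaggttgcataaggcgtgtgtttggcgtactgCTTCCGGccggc
Nop16, chr13:54590075-54590324, minus strand: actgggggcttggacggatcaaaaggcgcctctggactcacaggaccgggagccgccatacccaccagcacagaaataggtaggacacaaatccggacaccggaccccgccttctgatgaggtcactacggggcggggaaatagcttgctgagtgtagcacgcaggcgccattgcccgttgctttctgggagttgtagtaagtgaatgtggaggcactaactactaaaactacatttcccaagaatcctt
Nle1, chr11:82908396-82908645, minus strand: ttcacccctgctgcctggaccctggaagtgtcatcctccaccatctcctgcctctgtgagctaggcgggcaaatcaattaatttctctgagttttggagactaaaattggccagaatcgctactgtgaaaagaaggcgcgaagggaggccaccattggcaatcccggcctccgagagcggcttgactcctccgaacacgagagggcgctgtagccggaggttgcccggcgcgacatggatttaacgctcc
The Mphosph10 promoter held the ETS letters 12 to 6 bases before the RefSeq start and the NRF1 letters 116 to 110 bases before it. The gene positions given below are from GENCODE M21. By these, the starts of Mphosph10 (64392268), Nop16 (54590090) and Nle1 (82908411) lie inside the windows shown. The ETS letters of Mphosph10 then lie past its start, within the gene. The other 3 windows held none of the 3 motifs. RefSeq had 35 promoters for 32 of the members, and 19359 for the genes of the table. The latter include genes that did not pass the filter on low counts, which all members passed, so the 2 sets are not alike. The E-box letters were in 5.71% of the members' promoters and 6.76% of all, the ETS letters in 20% and 9.16%, and the NRF1 letters in 8.57% and 3.82%. These are shares of 2, 7 and 3 promoters of members, and a match of letters is a description only. Of the 18 small-subunit promoters 1 held the E-box letters, 4 the ETS letters and 3 the NRF1 letters, and of the 15 large-subunit promoters 1, 3 and 0.

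The comparison asks how transcripts of the assembly factors differed after CX-5461, and whether those of the small and the large subunit did so to the same extent. With CX-5461, 29 of the 35 members fell, 2 rose and 4 were short of the threshold, an adjusted p of 0.05 (edgeR quasi-likelihood test). Among all 12198 genes tested, 36.5% were called lower, 37.2% higher and 73.7% either way, beside 82.9% of the members lower, 5.71% higher and 88.6% either way. The median log2 change of the members was -0.36, with 25% of them below -0.54 and 25% above -0.19. Over all tested genes the median was -0.005 with quartiles of -0.34 and 0.44; with an offset for GC content 3666 genes were higher and 5598 lower, against 4538 and 4448 here. The libraries of the 2 groups did not overlap, with CX-5461 lower, for 28 members, against 37.9% of all tested genes, and with CX-5461 higher for 2 members, against 38.2% (76.2% either way). CPM are relative to the other RNA of a library. A lower value can come from less RNA of a gene per cell, from fewer cells that hold it or from more RNA of other genes. These cannot be told apart here. Most falls were modest. Those of Wdr75, Nop16, Mphosph10, Nop14, Nle1, Wdr74 and Wdr43 were of at least 1.5-fold, which is 7 of 35 members against 12.2% of all genes.

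**Figure D1:**
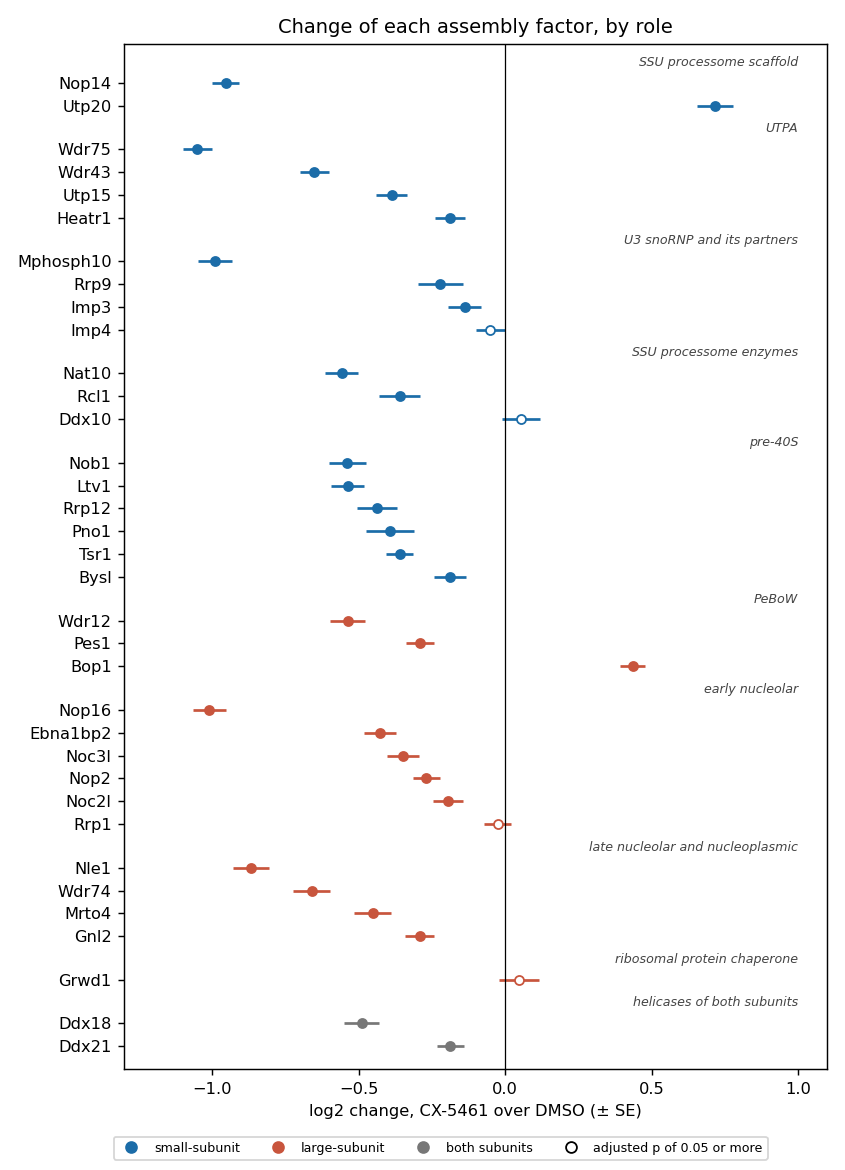
Log2 change of each of the 35 assembly factors, CX-5461 over DMSO, with its standard error (n = 3 per group), grouped by role and coloured by subunit; open circles have an adjusted p of 0.05 or more. Most points lie left of 0, from -1.05 for Wdr75, while Bop1 (0.44) and Utp20 (0.72) lie right of it.

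The small-subunit processome is entered first by UTPA, a complex that binds the 5′ end of the precursor. All 4 members from it fell, against 36.5% of all tested genes, but to very different extents. Wdr75 (chromosome 1, 45795166 to 45823619, GRCm38), a β-propeller protein of UTPA, had 71.3, 76.3 and 73.7 CPM in the CX-5461 libraries, against 154, 146 and 158 CPM in the DMSO libraries. Every CX-5461 library was thus far below every DMSO library, and the log2 change was -1.05 ± 0.05 (SE; adjusted p = 4.365e-11). Heatr1 (chromosome 13, 12395027 to 12440289), a long helical-repeat protein of the same complex, had 72.9, 67.2 and 73.9 CPM with CX-5461, against 82.4, 79.3 and 82.5 CPM with DMSO. Its groups did not overlap either, but the change was only -0.19 ± 0.05 (adjusted p = 0.004178). Between them stood Wdr43, at -0.65 ± 0.05, and Utp15, at -0.39 ± 0.05. Within a library, the ratio of Wdr75 to Heatr1 counts was 0.978 to 1.14 with CX-5461 and 1.84 to 1.91 with DMSO. The remaining UTPA genes, Cirh1a (Utp4) and Nol11, which were named after their values were seen, changed by -0.46 and -0.40, so that all 6 genes of the complex were lower.

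The U3 particle brings in MPP10, IMP3 and IMP4, which bind each other in a complex of 3 proteins. Their transcripts did not move together. Mphosph10 (chromosome 7, 64376527 to 64392268), which encodes MPP10, had 39.5, 42.5 and 36.9 CPM with CX-5461, against 77.5, 78.3 and 80.1 CPM with DMSO. The groups were clearly apart, with a log2 change of -0.99 ± 0.06 (adjusted p = 5.426e-10). Imp3 (chromosome 9, 56937475 to 56938398), a gene of 1 exon whose product pairs U3 with the precursor, had 62.0, 69.8 and 63.9 CPM with CX-5461, against 68.5, 74.0 and 72.4 CPM with DMSO. Its groups overlapped through CX-5461 replicate 2, which exceeded DMSO replicate 1, and the change was -0.14 ± 0.06 (adjusted p = 0.03957). This call is not firm, since it was lost in 7 of 15 alternatives, where the adjusted p reached 0.1555. Imp4 (chromosome 1, 34439851 to 34449356), the third protein, had 65.8, 65.4 and 64.5 CPM with CX-5461, against 65.1, 68.3 and 69.1 CPM with DMSO, a change of -0.05 ± 0.05 that did not pass (adjusted p = 0.3749). It passed as lower with library totals only, at -0.12, and with the GC offset, at -0.22 (adjusted p between 0.0006453 and 0.5851 over alternatives). The U3 protein Rrp9, a β-propeller bound directly to the RNA, was at 24.7 ± 2.32 CPM with CX-5461 and 28.7 ± 0.280 CPM with DMSO (SD, n = 3 each; adjusted p = 0.01613). Its call was lost without CX-5461 replicate 1 or without DMSO replicate 2, where the adjusted p reached 0.07188.

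The ratio of Mphosph10 to Imp3 counts within a library does not depend on library scaling. It was 0.636, 0.609 and 0.577 with CX-5461, against 1.13, 1.06 and 1.11 with DMSO. The groups did not overlap. The ratio of Imp3 to Imp4 was 0.943, 1.07 and 0.991 with CX-5461, against 1.05, 1.08 and 1.05 with DMSO, and these overlapped. The 8 ratios computed between members were chosen after their values were seen and are descriptions with no test, and only how a ratio differs between groups is read, since counts also depend on transcript length.

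Nop14 and Utp20 encode large scaffold proteins of the processome, and they moved in opposite directions. Nop14 (chromosome 5, 34638536 to 34660148) had 84.5, 89.3 and 89.5 CPM with CX-5461, against 169, 172 and 169 CPM with DMSO. That was a change of -0.95 ± 0.05 (adjusted p = 5.12e-11), with no overlap. Utp20 (chromosome 10, 88746607 to 88826804), a helical-repeat protein of very large size, had 54.6, 50.2 and 54.5 CPM with CX-5461, against 32.4, 31.0 and 33.8 CPM with DMSO. Here every CX-5461 library was higher, by 0.72 ± 0.06 or 1.64-fold (adjusted p = 4.635e-08). The ratio of Utp20 to Nop14 counts averaged 0.606 ± 0.0424 with CX-5461 and 0.191 ± 0.0104 with DMSO (SD, n = 3 each).

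Among processome enzymes, Nat10, the acetyltransferase of the 18S rRNA, changed by -0.56 ± 0.06, and Rcl1, known in yeast for its part in a cleavage before the 18S rRNA, by -0.36 ± 0.07. The helicase gene Ddx10 did not pass, with 38.8, 35.1 and 37.3 CPM with CX-5461, against 36.5, 33.6 and 37.2 CPM with DMSO. The groups overlapped, at a log2 change of 0.05 ± 0.07 (adjusted p = 0.4677). Ddx10 spans 149 kb, the longest of the members, and Utp20 80.2 kb, the next longest, where the median member spans 15.0 kb and the median tested gene 24.2 kb. Among all tested genes the median log2 change was -0.08 at 20 to 50 kb, 0.04 at 50 to 100 kb and 0.57 over 100 kb. With an offset for gene span fitted in each library, Ddx10 was lower, at -0.45 (adjusted p = 4.311e-06, between 2.246e-06 and 0.9433 over alternatives), and Utp20 was still higher, at 0.53. Across the 35 members the rank correlation of log2 change with span was 0.10, and with the mean CPM in DMSO -0.09, a description with no test.

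**Figure D2:**
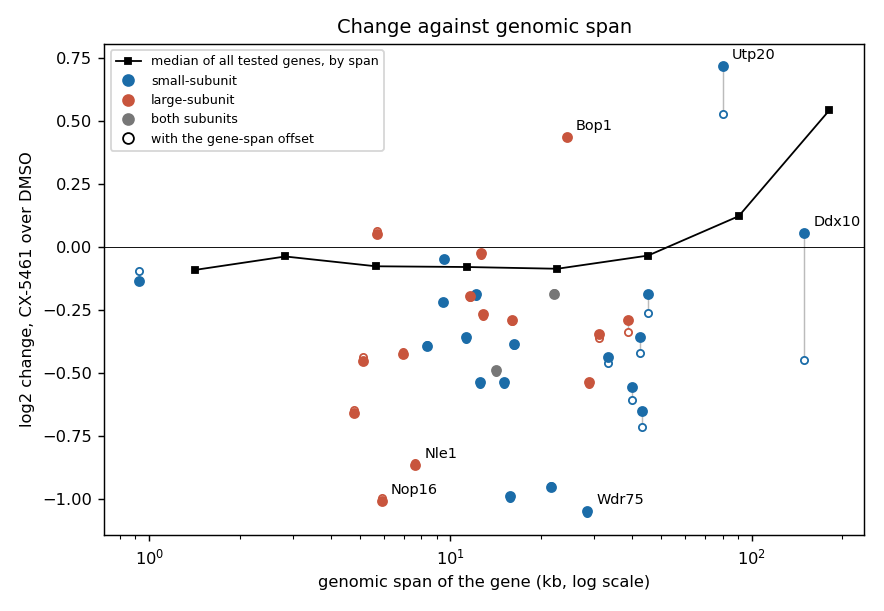
Log2 change of the 35 assembly factors (filled circles) against the genomic span of their genes in kb on a log scale, with the same value after the gene-span offset (open circles) and the median of all tested genes in bins of span (black squares). With the offset Ddx10 lay at -0.45 and not 0.05, and Utp20 at 0.53 and not 0.72.

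After the first cleavages the small subunit ripens in pre-40S particles. All 6 members that act there fell, where 36.5% of all tested genes were called lower, and none overlapped between groups, where 37.9% of all were apart with CX-5461 lower. Nob1, the endonuclease that makes the 3′ end of the 18S rRNA, averaged 43.5 ± 1.44 CPM with CX-5461 and 63.2 ± 4.91 CPM with DMSO (SD, n = 3 each), a change of -0.54 ± 0.06. Pno1, which holds that site until the cut, changed by -0.39 ± 0.08, and Ltv1, a factor released by phosphorylation, by -0.54 ± 0.06. The export factor gene Rrp12 changed by -0.44 ± 0.07 and Tsr1, a GTPase-like protein, by -0.36 ± 0.05. The smallest of these falls was that of Bysl, at -0.19 ± 0.05 (adjusted p = 0.005349). Of the exonic bases of Tsr1, 32.3% lie over Srr on the other strand, and Srr had 52.9 to 55.5 CPM with CX-5461 and 66.5 to 71.6 CPM with DMSO. Whether strand was used in counting is not given in the sources used here, so the value of Tsr1 is uncertain.

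**Figure D3:**
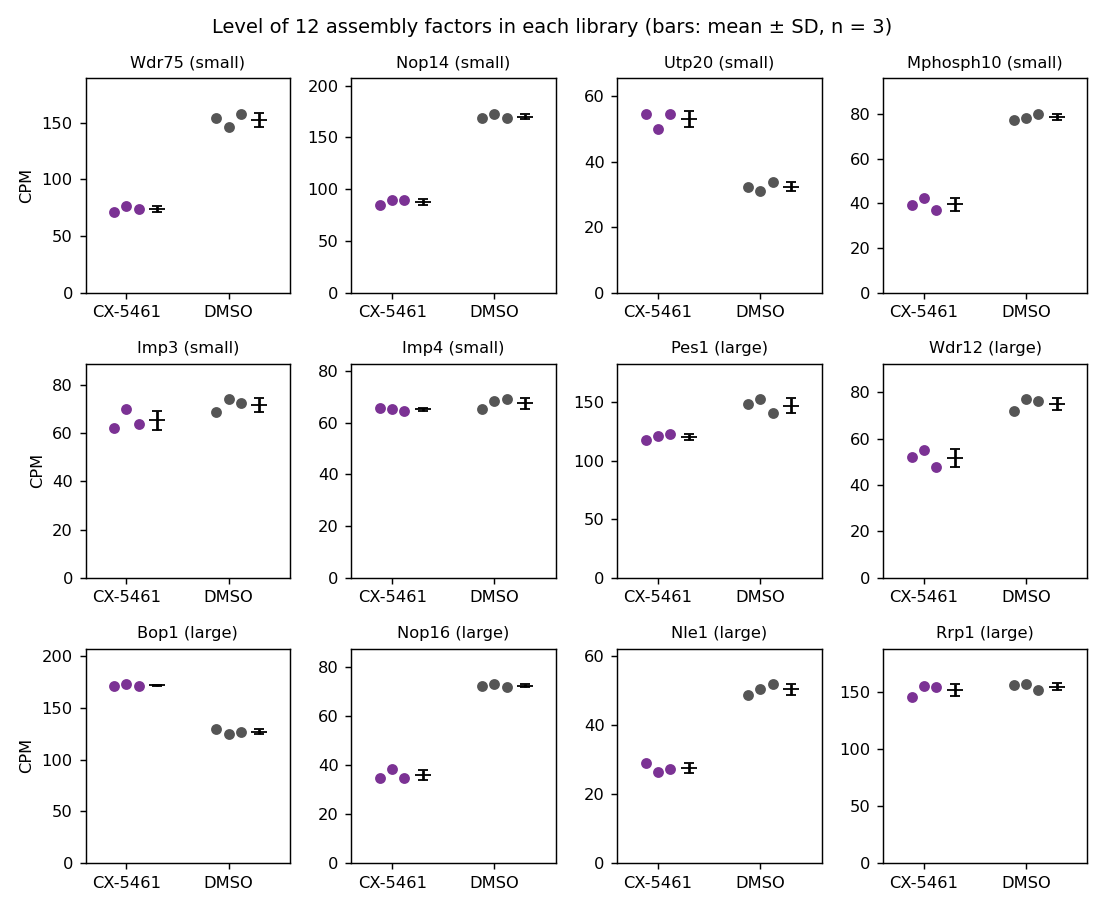
CPM of 12 assembly factors in each of the 3 CX-5461 and 3 DMSO libraries (points), with mean and SD beside them; the y axes start at 0. The groups are apart for Wdr75, Nop14, Mphosph10, Pes1, Wdr12, Nop16 and Nle1 (lower with CX-5461) and for Utp20 and Bop1 (higher), and overlap for Imp3, Imp4 and Rrp1.

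On the large subunit, PES1, BOP1 and WDR12 form the PeBoW complex. Its genes also split. Pes1 (chromosome 11, 3963975 to 3980004), which contacts the rRNA, had 118, 121 and 123 CPM with CX-5461, against 149, 153 and 141 CPM with DMSO, a fall of -0.29 ± 0.05 on the log2 scale (adjusted p = 4.653e-05). Wdr12 (chromosome 1, 60069785 to 60098645), a β-propeller protein, had 52.2, 55.2 and 47.7 CPM with CX-5461, against 72.0, 76.9 and 76.0 CPM with DMSO, or -0.54 ± 0.06 (adjusted p = 7.974e-07). Bop1 (chromosome 15, 76452989 to 76477277), the protein that joins both of these, had 171, 173 and 172 CPM with CX-5461, against 130, 125 and 127 CPM with DMSO. It rose by 0.44 ± 0.04, or 1.35-fold (adjusted p = 2.111e-07), and over alternatives by 0.31 to 0.44. The ratio of Bop1 to Pes1 counts was therefore 1.45, 1.43 and 1.40 with CX-5461, against 0.871, 0.820 and 0.903 with DMSO. That of Bop1 to Wdr12 averaged 3.34 ± 0.238 with CX-5461 and 1.70 ± 0.0911 with DMSO. In both ratios the groups were apart.

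**Figure D4:**
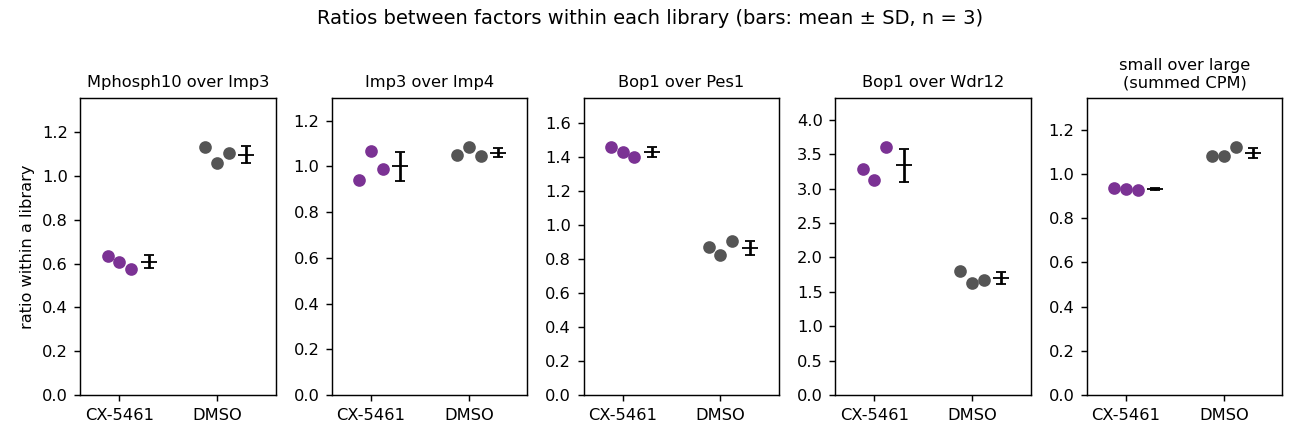
Ratios between assembly factors within each library, for 2 pairs of genes of the MPP10 complex, 2 pairs of PeBoW and the summed CPM of small-subunit over large-subunit factors; points are the 3 CX-5461 and 3 DMSO libraries, bars mean ± SD, and the y axes start at 0. Mphosph10 over Imp3 was lower with CX-5461 and both Bop1 ratios were higher, while Imp3 over Imp4 overlapped.

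Of the 6 early nucleolar factors of the large subunit, 5 fell, against 36.5% of all tested genes, and 1 did not pass. Nop16 (chromosome 13, 54584185 to 54590090), a small nucleolar protein, had 34.8, 38.5 and 34.8 CPM with CX-5461, against 72.5, 73.1 and 71.8 CPM with DMSO. This was the largest fall among the large-subunit members, at -1.01 ± 0.06 (adjusted p = 3.072e-10). Ebna1bp2 changed by -0.43 ± 0.05 and Noc3l by -0.35 ± 0.06. Nop2, a methyltransferase of the 28S rRNA, averaged 157 ± 4.60 CPM with CX-5461 and 189 ± 6.66 CPM with DMSO, a change of -0.27 ± 0.05. Noc2l, which is also known to bind histones, changed by -0.20 ± 0.05, and 20.9% of its exonic bases lie over Samd11, whose level did not exceed 2.61 CPM in any library. Rrp1 had 146, 156 and 155 CPM with CX-5461, against 156, 157 and 152 CPM with DMSO. Its groups overlapped (log2 change -0.03 ± 0.05, adjusted p = 0.6203), and it passed as lower only with the GC offset, with and without a replicate block (adjusted p between 0.001864 and 0.9649 over alternatives).

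Factors that join or leave later, in the nucleolus and nucleoplasm, fell in 4 of 4 cases (36.5% of all tested genes). Nle1 (chromosome 11, 82900768 to 82908411), which is pulled off the particle by the AAA ATPase MDN1, had 28.9, 26.2 and 27.2 CPM with CX-5461, against 48.6, 50.3 and 51.7 CPM with DMSO. Its groups were well apart, at -0.87 ± 0.06 (adjusted p = 5.181e-09). Wdr74, which the ATPase NVL releases, changed by -0.66 ± 0.06, and Mrto4, which holds the place of the ribosomal stalk protein P0, by -0.45 ± 0.06. Mrto4 has 2 annotated pseudogenes by name, which can share its reads. Gnl2, a GTPase, changed by -0.29 ± 0.05. Grwd1, known in yeast as a chaperone of the ribosomal protein Rpl3, had 25.3, 26.2 and 25.6 CPM with CX-5461, against 25.2, 23.9 and 25.4 CPM with DMSO, a log2 change of 0.05 ± 0.07 short of the threshold (adjusted p = 0.5326). It was below 0 without TMM factors and with the GC offset. Of the RNA helicases with roles for both subunits, Ddx18 changed by -0.49 ± 0.06 and Ddx21, which is also known to bind RNA polymerase I transcripts and snoRNAs, by -0.19 ± 0.05 (adjusted p = 0.001731).

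Set side by side, 16 of 19 small-subunit factors fell and 1 rose, and 11 of 14 large-subunit factors fell and 1 rose, where 36.5% of all tested genes were called lower. The median log2 change was -0.39 for small-subunit factors (range -1.05 to 0.72) and -0.32 for large-subunit factors (range -1.01 to 0.44). The difference of these medians, -0.07, was about as large as its spread over the CX-5461 libraries (SD 0.0625), in which it was -0.015, -0.13 and -0.032. By sums, small-subunit factors together had 1007 ± 10.6 CPM with CX-5461 and 1392 ± 7.10 CPM with DMSO, which is 27.6% less. Large-subunit factors together had 1080.1 ± 17.1 CPM with CX-5461 and 1272 ± 19.1 CPM with DMSO, which is 15.1% less. The ratio of both sums was 0.939, 0.931 and 0.927 with CX-5461, against 1.08, 1.08 and 1.12 with DMSO. With the risers Utp20 and Bop1 left out of their sums, a choice made after their values were seen, the ratio averaged 1.05 ± 0.00884 with CX-5461 and 1.19 ± 0.0250 with DMSO. A sum is led by its most abundant members and the median is not, so both are given, as descriptions with no test. The ratio of sums was thus lower in every CX-5461 library than in any DMSO library. The difference of the medians was below 0 in each of the 3 CX-5461 libraries, and from -0.09 to -0.03 over alternatives. In DMSO replicates 1, 2 and 3 it was -0.0218, -0.0151 and 0.0253. CX-5461 replicate 1, at -0.0145, lay within that range, so by the medians the groups overlapped.

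**Figure D5:**
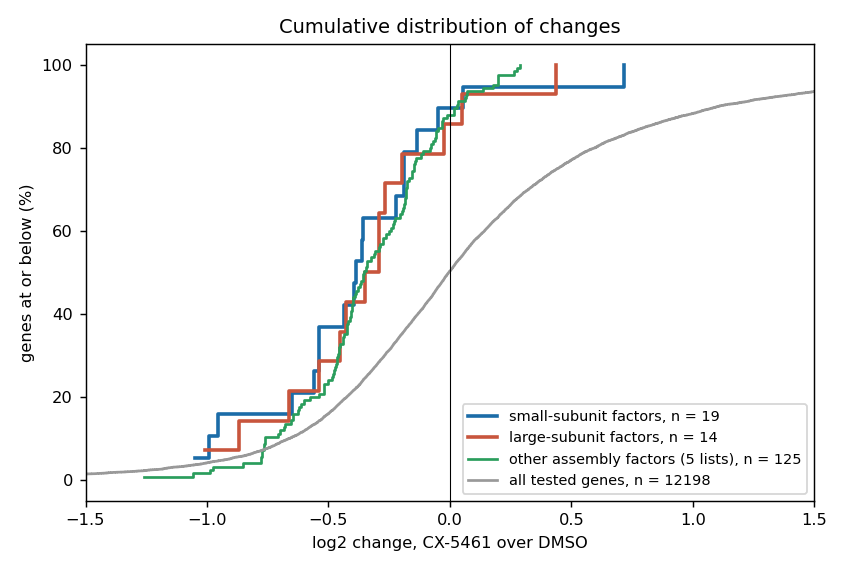
Cumulative share of genes against log2 change, CX-5461 over DMSO, for the 19 small-subunit and 14 large-subunit factors, the 125 other assembly factors and all 12198 tested genes; some of all tested genes lie beyond the ends of the x axis. The 2 subunit curves and that of the other factors run close together. From their lower to their upper quartile they lie left of the curve of all genes. At the far left end the curve of all genes reaches lower, to -4.58 against -1.26 for the other factors.

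Other genes of the pathway were read from 5 further lists, likewise chosen with earlier results of these data known. Of the 130 genes named, 125 were found and tested. Over all 5 lists 74.4% of these were lower and 6.4% higher, against 36.5% and 37.2% of all tested genes. Of 35 other processome factors, as listed here, 27 fell, none rose and 8 were short of the threshold (median log2 change -0.34). Utp18, of the UTPB complex, averaged 54.7 ± 2.74 CPM with CX-5461 and 93.8 ± 4.22 CPM with DMSO (-0.78 ± 0.06, adjusted p = 4.614e-09), and Esf1 averaged 51.1 ± 3.42 CPM with CX-5461 and 87.5 ± 3.32 CPM with DMSO (-0.78 ± 0.06). Of the 6 UTPB genes, which were grouped after their values were seen, 5 were lower and Utp6 did not pass (adjusted p = 0.3007). Of 14 other pre-40S factors, 10 fell, 1 rose and 3 were short of it (median -0.47). Dimt1, a dimethyltransferase of the 18S rRNA, averaged 7.20 ± 0.359 CPM with CX-5461 and 14.3 ± 1.32 CPM with DMSO (-0.99 ± 0.11). Trmt112, a partner of rRNA methyltransferases, had 6.67, 8.63 and 8.70 CPM with CX-5461, against 16.3, 15.1 and 15.5 CPM with DMSO (-0.97 ± 0.11). Fam207a rose by 0.18 ± 0.06, a call lost in 5 of 15 alternatives. Each of the RIO kinase genes Riok1, Riok2 and Riok3 passed as lower, at -0.48, -0.45 and -0.77; they were grouped after their values were seen.

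Of 46 other nucleolar large-subunit factors, 35 fell, 5 rose and 6 were short of the threshold (median -0.38). Rbm19, among these risers at 0.20 ± 0.07 (adjusted p = 0.01696), was placed in this list and not with the processome factors. The counts of risers in both lists depend on this placing. Beside this and the next 2 lists, 36.5% of all tested genes were lower and 37.2% higher. Tma16, a pre-60S factor, averaged 11.2 ± 0.491 CPM with CX-5461 and 26.9 ± 1.12 CPM with DMSO, or -1.26 ± 0.08 (adjusted p = 1.423e-09), and Sdad1 changed by -0.85 ± 0.06. Among the risers, Pelp1 changed by 0.29 ± 0.07 and Wdr18 by 0.28 ± 0.06, both of the Rix1 complex that acts on pre-60S particles. The Wdr18 call was lost with the GC offset (adjusted p between 0.0001713 and 0.1031 over alternatives). The SUMO protease gene Senp3, which acts on this complex, was higher by 0.14, while Tex10, Nol9 and Las1l of the same group changed by -0.46, -0.47 and -0.19. These 4 were named after their values were seen. With library totals only, just 2 genes of this list were called higher, Pelp1 and Wdr18, so the call of Senp3 was lost. Of 13 genes of export and cytoplasmic 60S maturation, 10 fell, 2 rose and 1 was short of it (median -0.28). Nmd3, the export adaptor, changed by -0.68 ± 0.06 and the ATPase gene Spata5 by -0.58 ± 0.07. Heatr3 changed by 0.27 ± 0.07 and the GTPase gene Eftud1 (Efl1) by 0.20 ± 0.06. The Heatr3 call was lost with the GC offset (adjusted p to 0.2255), and that of Eftud1 with library totals only, with the GC offset and without DMSO replicate 2 (adjusted p to 0.8882). With the gene-span offset Eftud1 passed as lower, at -0.20. Of 17 exosome and exonuclease genes, 11 fell, none rose and 6 were short of the threshold (median -0.19). Dis3, a catalytic subunit of the exosome, averaged 33.4 ± 1.16 CPM with CX-5461 and 69.5 ± 3.52 CPM with DMSO (-1.06 ± 0.06, adjusted p = 2.846e-10), while Isg20l2 changed by -0.41 ± 0.06. The 8 genes of the exosome core that were tested, without the unmatched Exosc6, ran only from -0.39 to 0.03. Of these 4 were lower and 4 did not pass, and they were grouped after their values were seen.

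Features of the genes that the list did not use were also read. By annotated starts, 9 of the 35 members (25.7%) have a protein-coding gene starting within 1 kb on the other strand and running away from them, against 10.9% of all tested genes with an annotation. Of their 10 partners that could be tested, 4 fell, 2 rose and 4 did not pass, where 36.5% of all tested genes were lower and 37.2% higher. The share of partners that fell is thus near the background and says little about them. Mphosph10 shares its start region with Mcee, a mitochondrial epimerase gene, which had 10.7, 14.2 and 11.3 CPM with CX-5461, against 12.4, 13.2 and 12.7 CPM with DMSO. These overlapped and did not pass (adjusted p = 0.4413), although Mcee passed as lower with the GC offset or without CX-5461 replicate 2 (adjusted p from 0.01201). Nop16 shares one with Higd2a, which fell by 0.25 on the log2 scale where Nop16 fell by 1.01. Bop1 shares one with Hsf1, the heat shock factor, which changed by -0.25 ± 0.05 while Bop1 rose. Mrto4, lower, stands head to head with Emc1, which rose by 0.34 ± 0.07, and with Ubr4, which did not pass. Ubr4 was called lower with the gene-span offset (-0.33, adjusted p = 0.0005884) and higher without CX-5461 replicate 2 (0.23, adjusted p = 0.0001657). The calls of Emc1 and Parp3 were lost with the GC offset, and that of Med20 without DMSO replicate 2 or 3. Ebna1bp2 stands opposite Wdr65, at 0.991 ± 0.190 CPM with CX-5461 and 0.475 ± 0.0883 CPM with DMSO, and Nop14 opposite Grk4, which did not pass but was called lower with the gene-span offset (-0.64, adjusted p = 0.02784). Ankra2 and Med20, the partners of Utp15 and Bysl, fell with them, by 0.42 and 0.15, and Ccdc115, the partner of Imp4, did not pass, as Imp4 did not, while both passed as lower with the GC offset, at -0.20 and -0.22. Of genes that start in the same region but overlap the member, Parp3 (beside Rrp9) changed by 0.25 ± 0.05 and Carf (beside Wdr12) by -0.44 ± 0.12. Wdr43 and Tsr1 hold annotated snoRNAs within their spans (3 and 2), which is 5.71% of members against 1.72% of tested genes. Myc, whose product is known to drive many of these genes, was at 41.1 ± 0.499 CPM with CX-5461 and 38.7 ± 1.57 CPM with DMSO. It did not pass (adjusted p = 0.1938), and its log2 change was below 0 with the GC offset. Its CX-5461 libraries (41.5, 41.2 and 40.5 CPM) were still all above its DMSO libraries (37.3, 38.5 and 40.4 CPM). Of all tested genes 38.2% were apart in this direction.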

How the data were processed

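RNA was sequenced from 6 samples, 3 with CX-5461 and 3 with DMSO, and groups and replicate numbers come from the sample titles. The deposited table holds whole-number counts of reads per protein-coding gene, not normalized by the authors, as the differing column totals show. The submitters' processing notes name the builds GRCm38 and mm10. Aligner, counter, annotation and strand setting: not given in the sources used here, so overlapping genes and close copies cannot be separated with certainty.

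The default filterByExpr filter of edgeR 4.0.16 (R 4.3.3; minimum count of 10) left 12198 genes holding at least 99.95% of each library's counts. TMM factors ran from 0.970 to 1.03. The whole table was fitted with edgeR's quasi-likelihood test (intercept and treatment, two-sided), with Benjamini-Hochberg adjustment over all tested genes. The threshold for a call was an adjusted p of 0.05; adjusted p-values come from this edgeR test, or, in ranges over alternatives, also from those alternatives. Log2 changes are CX-5461 minus DMSO, and the standard error is |log2 change| / sqrt(F). CPM were scaled to TMM-corrected library sizes. Replicates were not alike within sampling noise. Chi-square per degree of freedom was 5.65 to 9.40 between CX-5461 libraries and 1.57 to 2.56 between DMSO libraries.

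The members, the 5 further lists, the subunit and role of each member, and the rule for named genes were chosen with earlier results of these data known. The rule named all members, the 2 called genes with the largest change in each direction from each list with a mean of 5 CPM or more in the higher group, Myc, and genes starting within 1 kb of a member on the other strand. In the lists, Ak6, Nifk, Spata5l1, Exosc6 and Rexo5 were not matched to the table by these symbols. Gene positions, spans and exonic bases are from GENCODE M21 (GRCm38), which matched 21842 of the 22740 identifiers; span and GC were known for 99.5% of tested genes. Alternatives were RLE factors, library totals only, no filter, DESeq2 1.42.0, a replicate block, smooth offsets (mgcv 1.9.3) for gene span or GC with and without that block, an adjusted p of 0.01, and each library left out.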

Additional observations from a re-analysis of the deposited data

How the results depend on the processing

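Of the 35 members, 29 kept their direction and their side of the threshold in all 15 alternatives with a fit, and 29 lower and 2 higher members became 27 to 31 lower and 2 higher. The median log2 change of members moved to -0.43 when only library totals were used, to -0.39 for the gene-span offset and -0.49 for the GC offset, and to -0.39 and -0.49 for these offsets with the replicate block. That of small-subunit factors moved to -0.46, -0.42, -0.52, -0.43 and -0.52 in the same order. That of large-subunit factors moved to -0.39 with library totals only, -0.48 with the GC offset and -0.48 with the GC offset and the block. Leaving out 1 library gave -0.39 to -0.36 for members, -0.41 to -0.37 for small-subunit and -0.35 to -0.31 for large-subunit factors, and -0.09 to -0.03 for the difference of these medians. The median of all tested genes, -0.005 in the reported fit, moved down as well. It was -0.079 when scaling used totals alone, which is about as large a shift as that of the members. For the gene-span offset it was -0.088, a larger shift than that of the members. For the GC offset it was -0.12, a slightly smaller one. The GC offset gave 3666 genes higher and 5598 lower, against 4538 and 4448 in the reported fit. The gene-span offset gave 3782 and 5296, and totals alone 3989 and 5109.

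Some genes took the opposite sign, and the cause was not tested. With library totals only these were Ddx10 (-0.019) and Grwd1 (-0.025). With the gene-span offset they were Ddx10 (-0.45), Eftud1 (-0.20) and Ubr4 (-0.33), and with that offset and the block Ddx10 (-0.45), Eftud1 (-0.20) and Ubr4 (-0.34). With the GC offset they were Grwd1 (-0.087), Ubr4 (-0.057) and Myc (-0.094), and with that offset and the block Grwd1 (-0.087), Ubr4 (-0.073) and Myc (-0.093). Of these, Ddx10, Eftud1 and Ubr4 with the gene-span offset, with or without the block, passed as lower. Ubr4 also turned without CX-5461 replicate 1, at -0.024, and ran from -0.024 to 0.23 over the libraries left out, passing as higher without CX-5461 replicate 2.

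Same-numbered samples did not deviate together (correlations of 0.04, 0.004 and -0.008 for replicates 1, 2 and 3), and not every sample correlated best with its own number, so the numbers were not taken as pairs. With the replicate block 4536 genes were higher and 4464 lower, and 29 members lower and 2 higher. At 442 to 3980 counts per member and library, with a biological coefficient of variation of 4.86% over genes, the calls of Imp3 (-0.14) and Rrp9 (-0.22) were the only ones among the 31 called members lost in any of the 15 alternatives.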
